A study of Mus musculus with 6 samples.

Results

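The interferon-stimulated genes are the transcripts that cells raise when interferons signal, and 44 of them were followed in cultures of primary mouse lung fibroblasts given the Hedgehog agonist purmorphamine. The 44 were taken as a list of symbols, drawn up with earlier results of these data known. A member was measured where a probe set of the array carried its symbol and no other, and where there were several, the brightest by its mean of 6 arrays stood for it. By this rule 43 of the 44 were measured, among 22180 named genes in all. Dtx3l was not, because its probe set is shared with Parp9.

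The cells came from digested lungs of wild-type C57BL/6 male mice aged 8 weeks, were enriched for fibroblasts and were passaged at most 3 times. They were split over wells and received vehicle (3 wells) or purmorphamine (3 wells), a small molecule that activates Smoothened, for 24 h. The labels write its dose as 5um, read here as 5 µM. Each well gave 1 Affymetrix array, and values are log2 signals, so a difference of -1 is a fall to 1/2 of the signal. The labels do not say how many mice or pools the wells came from, so p-values cover the variation from well to well, which may be technical alone. Across genes, the correlation of 2 arrays was 0.996 to 0.997 within a group and 0.992 to 0.993 between groups. Genes known from macrophages and some genes known from fibroblasts gave signals above the arrays' upper quartiles of 8.20 to 8.24. Among the brightest, the vehicle means were 13.96 for Lyz2 and 13.21 for Cd68, of macrophages. They were 13.70 for the fibronectin gene Fn1 and 12.77 for the collagen gene Col1a1. Other fibroblast genes lay under these quartiles, with vehicle means of 6.01 for Lum, 7.69 for Col14a1 and 7.73 for Tcf21. Fewer cells of a type and less RNA per cell cannot be told apart in such values.

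Interferons are secreted proteins that warn cells of infection. Type I interferons bind the receptor of Ifnar1 and Ifnar2, whose kinases Jak1 and Tyk2 activate a transcription factor complex that holds Stat2 and Irf9 and binds the interferon-stimulated response element in promoters. Interferon gamma signals through Jak1 and Jak2 to the gamma-activated site and induces Irf1, guanylate-binding proteins and antigen presentation genes. Many of the targets are themselves sensors, transcription factors and antiviral effectors. Macrophages and fibroblasts keep a low resting level of these genes through weak constant signalling.

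These elements can be read in the promoters of members that differed in behaviour, and stretches of 7 promoters are shown for that reason. The 7 were picked by hand and do not stand for all members. The first 4 belong to members that fell with purmorphamine, the last 3 to members that did not pass the test. Sequences are those of RefSeq on GRCm38.p6, written 5′ to 3′ on the strand of the gene. Capitals mark matches to the core of the response element, GAAANNGAAA or its reverse complement TTTCNNTTTC, and to the gamma-activated site, TTCNNNGAA.
Gbp7: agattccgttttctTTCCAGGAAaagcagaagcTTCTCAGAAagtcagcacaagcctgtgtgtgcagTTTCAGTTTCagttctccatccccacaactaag
Irf1: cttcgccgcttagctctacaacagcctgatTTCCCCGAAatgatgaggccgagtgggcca
Psmb8: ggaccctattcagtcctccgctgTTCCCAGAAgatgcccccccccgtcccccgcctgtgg
Stat2: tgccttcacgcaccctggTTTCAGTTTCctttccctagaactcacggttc
Ifit1: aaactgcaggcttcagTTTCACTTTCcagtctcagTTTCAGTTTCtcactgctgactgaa
Ifit3: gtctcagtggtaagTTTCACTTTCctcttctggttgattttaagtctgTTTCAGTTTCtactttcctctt
Isg15: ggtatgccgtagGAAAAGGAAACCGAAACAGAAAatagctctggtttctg

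The Gbp7 stretch is chr3:142530216-142530315 on the plus strand and holds 2 matches to the gamma-activated site and 1 to the response element core. The Irf1 stretch, chr11:53769894-53769953, and the Psmb8 stretch, chr17:34198075-34198134, both plus strand, hold 1 gamma-activated site match each. The Stat2 stretch, chr10:128270258-128270307 on the plus strand, holds 1 response element core, 222 to 213 bases before the start. The Ifit1 stretch, chr19:34640769-34640828, and the Ifit3 stretch, chr19:34583359-34583428, both plus strand, hold 2 cores each. The Isg15 stretch, chr4:156200859-156200908 on the minus strand, holds 3 overlapping cores. Only the 250 bases before each annotated start were searched, on both strands, and matches are descriptions of letters, not of bound sites.

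Of the 34 measured members with a promoter entry, 11 held the response element core, against 3.40% of 16990 tested genes with an entry (2.98% of all 32851 windows). The gamma-activated site was found in 8 of the 34, against 7.82% of tested genes (7.02% of windows). Among the 11 members that fell and had an entry, 4 held the core and 4 the gamma-activated site. Among the 23 that were not called, 7 held the core and 4 the gamma-activated site. The 2 motifs can overlap, as in Bst2. Matches to each motif therefore occurred in members on either side of the test. Of the members whose stretches are not shown, Bst2, Eif2ak2, Ifit2 and Isg20 were not called and held the gamma-activated site. Gbp3 and Trim30a fell and held the core without it.

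**Figure D1:**
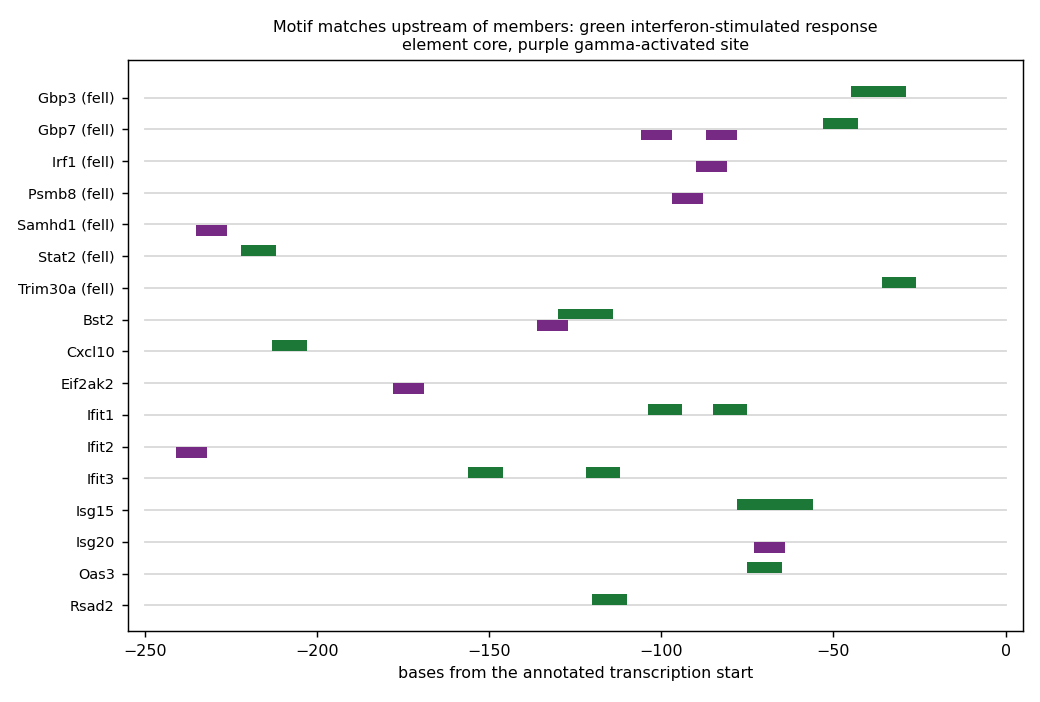
Matches to the response element core (green) and the gamma-activated site (purple) in the 250 bases before the annotated start (x axis, bases from the start) of the 17 members with a match, 1 row per gene. Members that fell are marked, and matches of both kinds occur in members that fell and in members that did not pass the test.

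The comparison of purmorphamine with vehicle asks what 24 h of a Hedgehog agonist does to these genes. Of the 43 measured members 16 fell, 0 rose and 27 did not pass the test, where 7.16% of all 22180 genes fell, 7.18% rose and 14.3% changed in either direction (limma, Benjamini-Hochberg adjusted p under 0.05 over all genes). At an unadjusted limma p under 0.05, 22 members were lower and 1 was higher, where 3125 of all 22180 genes were lower and 3129 higher. The falls were small: Oas2 was 1.88-fold lower, Gbp7 1.83-fold and Rtp4 1.51-fold, and the other 13 fell by less than 1.5-fold. Of all genes, 1.4% fell by at least 1.5-fold. The median difference over the 43 members was -0.23, beside -0.01 over all genes. The mean log2 signal over the members was 7.92 to 8.01 on the vehicle arrays and 7.72 to 7.74 on the purmorphamine arrays, so the groups did not overlap. All 3 purmorphamine values lay below all 3 vehicle values in 22 members and above them in 1, where 17.1% of all genes lay below and 17.1% above. With 1 array left out, 10 to 13 members fell, and the 10 were found without purmorphamine replicate 3. The same omissions left 1967 to 2374 called genes of 3181.

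**Figure D2:**
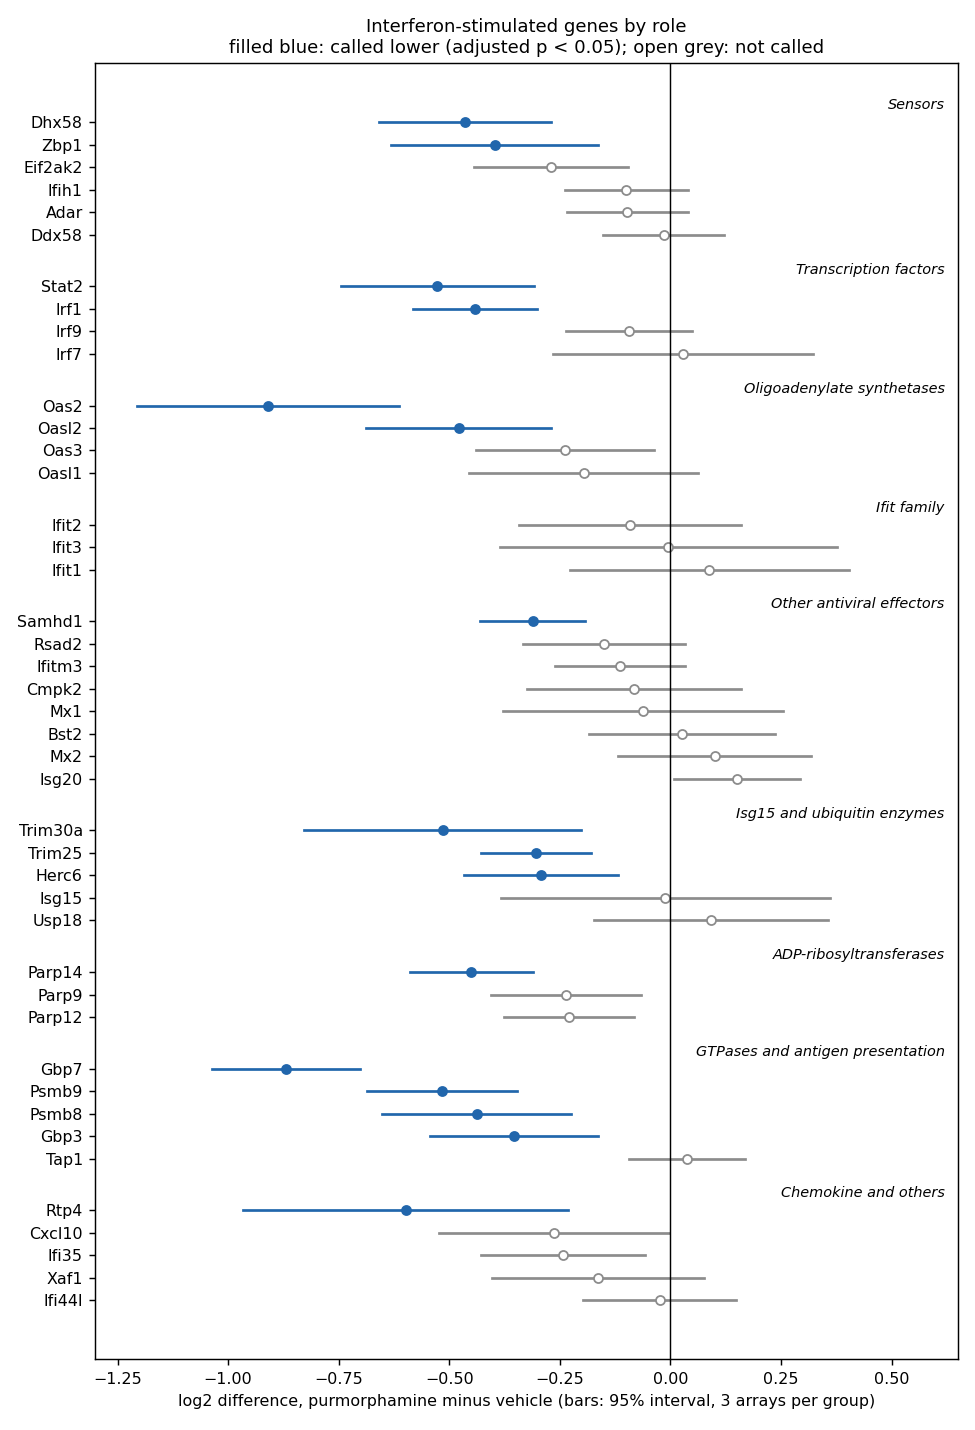
Log2 difference, purmorphamine minus vehicle (x axis), for the 43 measured members grouped by role, with 95% intervals from limma, 3 arrays per group. The 16 filled blue points passed the test and all lie below 0, and the open grey points did not pass.

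Members were also counted by role, beside the 7.16% of all genes that fell, in groups too small to compare with that share. Among the transcription factors of the pathway, 2 of 4 fell. Irf1, the interferon gamma induced factor, had signals of 8.32, 8.16 and 8.18 on the vehicle arrays and 7.77, 7.78 and 7.78 with purmorphamine. The purmorphamine arrays were lower and nearly equal to each other, and the groups did not overlap. On the log2 scale Irf1 fell by 0.44 (SE 0.06, n = 3 arrays a group, limma adjusted p = 0.0038). Stat2, a transcription factor of type I signalling, had 9.52, 9.30 and 9.44 with vehicle and 8.75, 9.04 and 8.89 with purmorphamine. Its groups did not overlap either, and it fell by 0.53 (SE 0.09, limma adjusted p = 0.011). Irf9, the DNA-binding subunit of the same complex, differed by -0.09 (95% interval -0.24 to 0.05). Irf7, which amplifies interferon gene transcription, differed by 0.03 (-0.27 to 0.32), with purmorphamine replicate 3 at 7.77, above all other arrays (7.31 to 7.55). Neither of these passed the test.

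Of the 6 nucleic acid sensors 2 fell. Dhx58 encodes LGP2, which tunes the related RNA helicases RIG-I and MDA5. Its vehicle signals were 7.29, 7.17 and 7.08 and its purmorphamine signals 6.59, 6.78 and 6.78. The groups did not overlap, and the fall was 0.46 (SE 0.08, limma adjusted p = 0.011). Zbp1, a sensor of Z-form nucleic acid that can start necroptosis, fell by 0.40 (SE 0.10, limma adjusted p = 0.039). In contrast to LGP2, the RIG-I gene Ddx58 had a difference of -0.02 (95% interval -0.15 to 0.12) and the MDA5 gene Ifih1 one of -0.10 (-0.24 to 0.04). Eif2ak2, the kinase PKR that halts translation on double-stranded RNA, had -0.27 and just missed the test (limma adjusted p = 0.053), with groups that did not overlap. Adar, which edits double-stranded RNA, had -0.10 (-0.23 to 0.04).

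The oligoadenylate synthetase family makes the messenger that switches on RNase L. Oas2 and the guanylate-binding gene Gbp7 had the 2 largest falls of the members in the fit of all arrays and in each alternative, but their order turned with an offset of 50 and without vehicle replicate 2 or purmorphamine replicate 1. The vehicle signals of Oas2 were 7.65, 7.70 and 7.50, and its purmorphamine signals 6.43, 6.78 and 6.91. The lowest vehicle array lay above the highest purmorphamine array, although the purmorphamine arrays were more spread. Oas2 fell by 0.91 (SE 0.13, limma adjusted p = 0.0041). Oasl2 had 7.83, 7.54 and 7.69 with vehicle and 7.10, 7.23 and 7.29 with purmorphamine. Again no value overlapped, and Oasl2 fell by 0.48 (SE 0.09, limma adjusted p = 0.013). Oas3 had -0.24 (95% interval -0.44 to -0.04, limma adjusted p = 0.12) and Oasl1, a translational repressor of Irf7, -0.20 (-0.46 to 0.06), and neither passed. Oas2 lies next to Oas3 and Oasl2 next to Oasl1 in the RefSeq annotation, and probes of such paralogs may bind transcripts of both, so the members of this family are uncertain as separate signals.

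**Figure D3:**
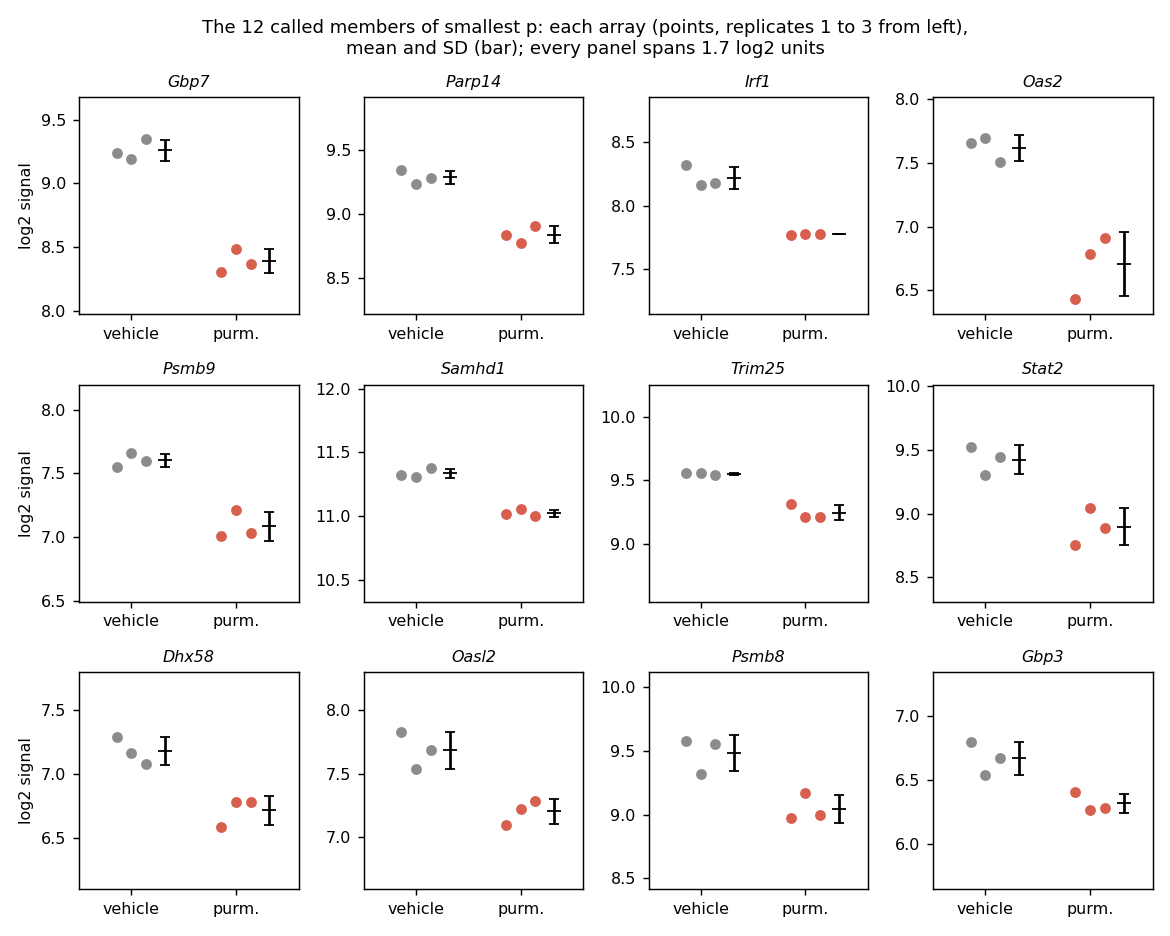
Log2 signal on each array for the 12 members that fell with the smallest p, vehicle in grey and purmorphamine in red, with the mean and SD of 3 arrays; each panel spans 1.7 log2 units. In all 12 panels the 3 purmorphamine points lie below the 3 vehicle points, with the widest gaps in Gbp7 and Oas2.

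Guanylate-binding proteins are GTPases that attack vacuoles of intracellular microbes, and Psmb8 and Psmb9 are catalytic subunits of the immunoproteasome, which cuts peptides for MHC class I. In this group 4 of 5 members fell. Gbp7 had vehicle signals of 9.24, 9.19 and 9.35 and purmorphamine signals of 8.31, 8.49 and 8.37. The gap between the groups was far wider than the spread within them, and Gbp7 fell by 0.87 (SE 0.07, limma adjusted p = 5.83e-04), the smallest p of any member. Its neighbour and paralog Gbp3, with probes that may be shared, had 6.80, 6.54 and 6.67 with vehicle and 6.40, 6.26 and 6.28 with purmorphamine. The groups stood closer but did not overlap, and Gbp3 fell by 0.35 (SE 0.08, limma adjusted p = 0.028).

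Psmb9 had 7.55, 7.66 and 7.60 with vehicle and 7.01, 7.22 and 7.03 with purmorphamine. All purmorphamine arrays were lower, and the fall was 0.52 (SE 0.07, limma adjusted p = 0.0042). Psmb8 had 9.58, 9.32 and 9.55 with vehicle and 8.97, 9.17 and 9.00 with purmorphamine. Vehicle replicate 2 and purmorphamine replicate 2 came nearest to each other without overlap, and Psmb8 fell by 0.44 (SE 0.09, limma adjusted p = 0.020). Tap1, the peptide transporter of class I loading, lies between these genes with 0 coding genes on either side before the next of them. Its signals were 8.78, 8.82 and 8.85 with vehicle and 8.82, 8.93 and 8.82 with purmorphamine. The groups overlapped, with a difference of 0.04 (95% interval -0.09 to 0.17), which leaves out a fall of the size seen in Psmb9.

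Whether relatives changed unequally was examined in 6 pairs chosen after their values were seen, by taking the difference of the log2 signals within each array. Psmb9 fell by 0.55 relative to Tap1, Oas2 by 0.67 relative to Oas3, Gbp7 by 0.52 relative to Gbp3, Dhx58 by 0.45 relative to Ddx58 and Stat2 by 0.43 relative to Irf9. In these 5 pairs the purmorphamine arrays did not overlap the vehicle arrays (two-sided exact permutation p = 0.1 each, 0.12 adjusted over 6 pairs, n = 3 per group). An exact p of 0.1 is the smallest that 3 against 3 arrays can give, so none could pass. Oasl2 fell by 0.28 relative to Oasl1 with overlap (exact permutation p = 0.3, also 0.3 adjusted).

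The ADP-ribosyltransferases Parp9, Parp12 and Parp14 modify proteins in the interferon response, and Parp9 works with the ubiquitin ligase Dtx3l. Parp14 had 9.34, 9.24 and 9.28 with vehicle and 8.83, 8.77 and 8.91 with purmorphamine. The groups were clearly apart, and Parp14 fell by 0.45 (SE 0.06, limma adjusted p = 0.0034). Parp12 had -0.23 and just missed the test (limma adjusted p = 0.052), and Parp9 had -0.24 (limma adjusted p = 0.075). In both, all purmorphamine values lay below the vehicle values. The probe set shared by Dtx3l and Parp9, which was not tested with the named genes, had a mean of 8.88 with vehicle and 8.64 with purmorphamine, a difference of -0.24. Parp14, Dtx3l and Parp9 are adjacent genes in the RefSeq annotation.

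Isg15 is a ubiquitin-like protein that is attached to others during the response. Herc6 is its main ligase in the mouse, and Usp18 removes it and also dampens the type I receptor. Trim25, a ubiquitin ligase of the RIG-I pathway, had 9.56, 9.55 and 9.54 with vehicle and 9.31, 9.21 and 9.21 with purmorphamine. The groups did not overlap, and Trim25 fell by 0.30 (SE 0.05, limma adjusted p = 0.010). Herc6 fell by 0.29 (SE 0.07, limma adjusted p = 0.041). Trim30a, a negative regulator of NF-kB signalling whose close paralogs make it uncertain as a separate signal, fell by 0.51 (SE 0.13, limma adjusted p = 0.044). Isg15 itself had 6.49, 6.31 and 5.88 with vehicle and 6.32, 6.04 and 6.28 with purmorphamine. Its arrays were spread in both groups and overlapped fully, with a difference of -0.01 (95% interval -0.38 to 0.36). Usp18 had 0.09 (-0.17 to 0.36), with vehicle replicate 1 the highest of its 6 arrays.

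Of the other antiviral effectors 1 of 8 fell, where 7.16% of all genes did. Samhd1, which hydrolyses the nucleotides needed for reverse transcription, had 11.32, 11.31 and 11.38 with vehicle and 11.01, 11.05 and 11.00 with purmorphamine. The small fall of 0.31 (SE 0.05, limma adjusted p = 0.0077) was several times the SD of either group, 0.04 and 0.03. Isg20, an RNA exonuclease, was the 1 member with all purmorphamine values (8.30, 8.40 and 8.23) above the vehicle values (8.18, 8.15 and 8.14), by 0.15, and it did not pass the test (limma adjusted p = 0.16). The tetherin gene Bst2, which holds budding virus at the membrane, had 0.03 (95% interval -0.18 to 0.24). Ifitm3, which blocks fusion of virus in endosomes, had -0.11 (-0.26 to 0.03). The viperin gene Rsad2 and its neighbour Cmpk2, a nucleotide kinase, had -0.15 (-0.33 to 0.03) and -0.08 (-0.32 to 0.16).

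The Mx GTPases trap viral nucleocapsids. Mx1 differed by -0.06 and Mx2 by 0.10, and neither passed. The C57BL/6 strain carries a defective Mx1 allele, as background. Mx1, Mx2 and Ifi44l (-0.02) were the 3 members whose 6 values all lay under 5.49, the lowest of the arrays' lower quartiles over genes. Changes of such dim genes are compressed, and their values bound the array signal and not the transcript.

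The Ifit proteins bind viral RNA and rank among the most strongly interferon-induced products in most cells. In these cultures 0 of 3 passed the limma test, where 14.3% of all genes did, and 0 had an unadjusted p under 0.05. With 3 genes this count does not set the family apart from other genes. Ifit1 had 7.17, 6.76 and 6.62 with vehicle and 6.91, 6.91 and 7.00 with purmorphamine. The vehicle arrays lay on both sides of the purmorphamine arrays, with a difference of 0.09 (95% interval -0.23 to 0.40). Ifit2 had -0.09 (-0.34 to 0.16). Ifit3 had 6.77, 7.32 and 6.97 with vehicle and 6.78, 7.05 and 7.22 with purmorphamine, means of 7.02 in both groups, and a difference of -0.004 (-0.38 to 0.38).

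**Figure D4:**
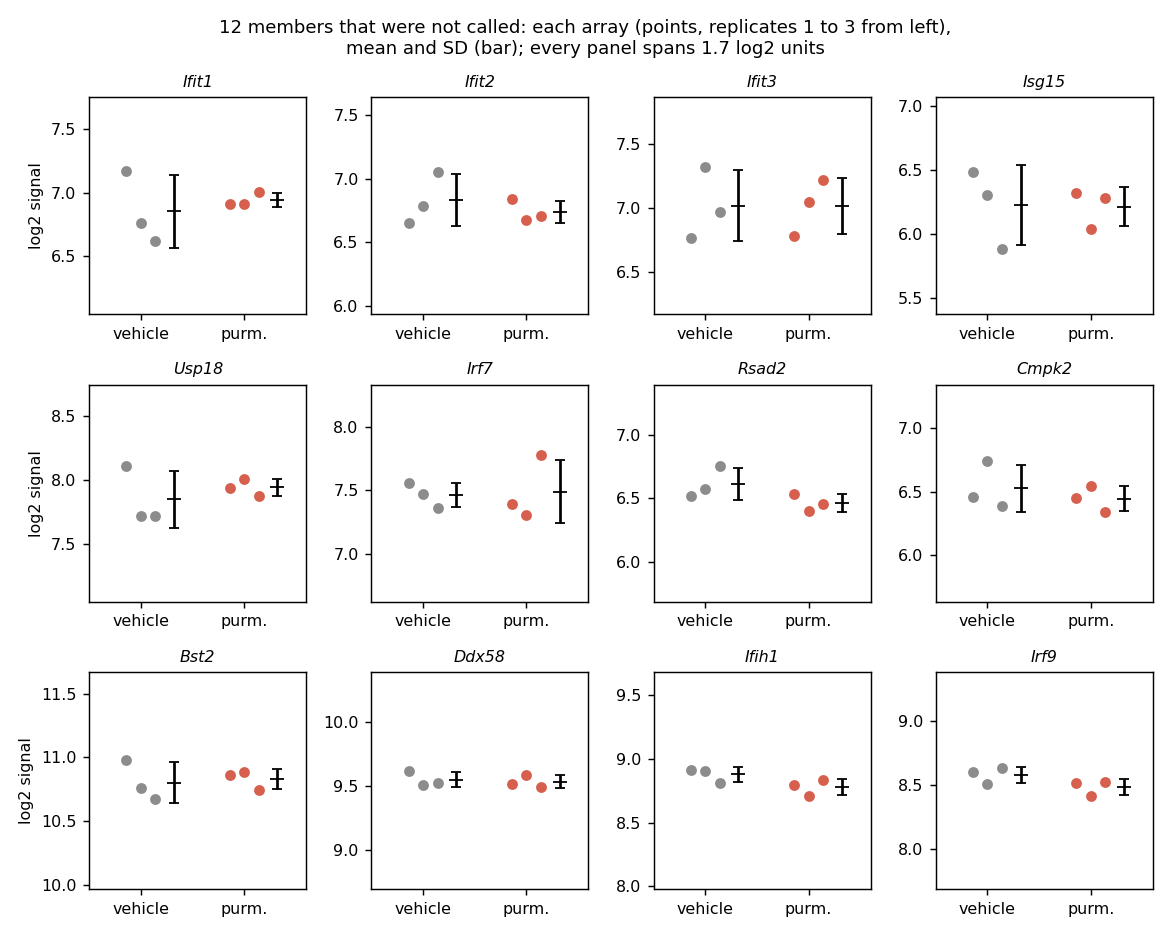
Log2 signal on each array for 12 members that did not pass the test, vehicle in grey and purmorphamine in red, with the mean and SD of 3 arrays; each panel spans 1.7 log2 units. The 12 were picked from the 20 members not called whose groups overlap. Not drawn are the members not called whose groups did not overlap, 6 lower and 1 higher. Vehicle arrays are widely spread in Ifit1 (SD 0.28), Ifit3 (SD 0.28) and Isg15 (SD 0.31).

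Of the remaining 5 members 1 fell, where 7.16% of all genes did. Rtp4, a chaperone of membrane receptors that also restricts viruses, had 7.86, 7.69 and 7.22 with vehicle and 7.07, 7.00 and 6.91 with purmorphamine. Vehicle replicate 3 came close to the purmorphamine arrays, and Rtp4 fell by 0.60 (SE 0.16, limma adjusted p = 0.045). Cxcl10, the interferon-induced chemokine that draws T cells, had 7.30, 7.42 and 7.32 with vehicle and 7.27, 6.84 and 7.14 with purmorphamine. Its groups just did not overlap, and the difference of -0.26 did not pass the test (limma adjusted p = 0.17). Ifi35 had -0.24 (limma adjusted p = 0.090) and Xaf1, a factor of cell death, -0.16 (95% interval -0.40 to 0.08). A second, dimmer probe set of Ifi35 differed by 0.01.

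All 27 members that did not pass had 95% intervals inside a 1.5-fold change in either direction. Of these, 20 differences were below 0 and 7 above, 15 were smaller than 0.1 in size, and 4 had an adjusted p under 0.1. A missed test does not show that their levels were equal.

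Of the 16 falls, 10 passed with any 1 of the 6 arrays left out: Gbp7, Parp14, Irf1, Oas2, Psmb9, Samhd1, Trim25, Stat2, Dhx58 and Oasl2. The other 6 lost their call in some of these cases. Psmb8 kept its call only with replicate 2 of vehicle (limma adjusted p = 0.015) or of purmorphamine (0.027) left out, and its limma adjusted p was 0.067 to 0.072 with any of the remaining 4 arrays left out. Gbp3 missed the test when replicate 1 (0.074) or 3 (0.080) of vehicle, or replicate 2 (0.087) or 3 (0.089) of purmorphamine, was left out. Zbp1 kept its call without vehicle replicate 3 (0.048) and purmorphamine replicate 2 (0.043) and lost it with each of the others left out (0.083 to 0.12). Herc6 passed only without vehicle replicate 3 (0.035), against 0.053 to 0.12 in the other 5 cases. Rtp4 likewise passed only without vehicle replicate 3 (0.0053), against 0.094 to 0.13. Trim30a passed only without vehicle replicate 1 (0.038), against 0.061 to 0.12. Parp12, not called with all arrays, passed without purmorphamine replicate 1 (0.047).

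Genes around the members were read from lists of the same pathway, chosen with earlier results of these data known. Of 13 measured interferon genes, the ligands, 0 changed with limma and Benjamini-Hochberg adjustment, where 14.3% of all genes did. Differences ran from -0.25 to 0.13. At an unadjusted p under 0.05 the count was also 0. In 7 of the 13, Ifna2 with the difference of -0.25 among them, all 6 values lay under 5.49, so for most of the ligands the arrays say little about the transcript. Ifnb1, the type I interferon that fibroblasts make first, had 4.60 ± 0.07 with vehicle and 4.56 ± 0.13 with purmorphamine (SD, n = 3) and is among these 7. Of 15 receptors, kinases and brakes, 1 rose and 1 fell, which is 13.3% called and near the 14.3% of all genes. Jak2, the kinase shared by the gamma receptor and many cytokine receptors, rose by 0.24, and Ptpn6, the leukocyte phosphatase SHP-1 that limits such signals, fell by 0.40. The receptor genes Ifnar1 and Ifnar2 had differences of 0.08 and 0.13, and the kinase genes Jak1 and Tyk2 -0.02 and -0.19, and none of these passed the test. Jak2 passed with 1 array left out only without purmorphamine replicate 2 (limma adjusted p 0.044 there, and up to 0.090 in the other cases).

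Of 15 genes of nucleic acid sensing and interferon induction, 5 fell (33.3%, beside 7.16% of all genes) and 0 rose (beside 7.18%) in the limma fit. At an unadjusted p under 0.05, 1 was higher. All 3 purmorphamine values lay below all 3 vehicle values in 6 of the 15 and above them in 4. Of all genes, 17.1% lay below and 17.1% above. Cgas, the cytosolic DNA sensor, fell by 0.59, from 7.28 ± 0.02 to 6.69 ± 0.12 (SD, n = 3, limma adjusted p = 0.0025). Sting1, the adaptor that Cgas activates, fell by 0.33 (limma adjusted p = 0.016). The DNA sensor gene Ifi204 fell by 0.45, Unc93b1, which carries endosomal Toll-like receptors, by 0.24, and Tlr3, the receptor for double-stranded RNA, by 0.22. Irf3, the factor activated downstream of these sensors, had -0.11 and did not pass. With 1 array left out, Cgas passed in all 6 cases and Tlr3 in none (limma adjusted p from 0.061 to 0.12). Sting1 missed the test without vehicle replicate 1 (0.0565). Ifi204 kept its call without vehicle replicate 3 or without purmorphamine replicate 1 and missed it in the other 4 cases (up to 0.096), and Unc93b1 without any vehicle array or purmorphamine replicate 1 (up to 0.072).

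Interferon-stimulated genes outside the 44 were followed as well. Of 42 measured, 16 fell (38.1%, beside 7.16% of all genes) and 0 rose (beside 7.18%) in the limma fit. Their median was -0.23, beside -0.01 over all genes, and 3 were higher at an unadjusted p under 0.05. This list too was chosen with earlier results of these data known, so it is no independent support for the members' falls. Epsti1 went from 8.19 ± 0.11 to 7.14 ± 0.14 (SD, n = 3). It fell by 1.06 (SE 0.09, limma adjusted p = 6.52e-04). The nuclear body genes Sp110 and Sp100 fell by 0.94 and 0.74. Phf11b fell by 0.86 and Lgals9, which encodes galectin-9, by 0.50. Ms4a4c had 5.70, 5.85 and 5.79 with vehicle and 5.11, 4.78 and 4.68 with purmorphamine. The latter all lay under 5.49, so its fall by 0.92 is one of the array signal and does not measure the transcript. Of the 16, 11 passed with any 1 array left out, the 6 named here among them. The other 5 lost their call in some omissions, Ifit1bl1 and Trim21 in 5 of 6, Ly6e and Uba7 in 4 and Mndal in 2. Of the 16, 2 more, Ifit1bl1 and Ifitm1, had all 6 values under 5.49.

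Of 29 measured genes known chiefly as interferon gamma targets, 4 fell (13.8%, beside 7.16% of all genes) and 2 rose (6.9%, beside 7.18%). The share that rose is near that of all genes. Psmb10, the third inducible catalytic subunit of the immunoproteasome, fell by 0.41 beside Psmb8 and Psmb9. Gbp9 fell by 0.64, the peptide-trimming enzyme gene Erap1 by 0.32, and Nlrc5, which drives class I gene transcription, by 0.23. Cd274, which encodes PD-L1, rose by 0.85, from 9.50 ± 0.03 to 10.35 ± 0.02 (SD, n = 3, limma adjusted p = 1.64e-04). The class I gene H2-K1, which has close paralogs and is uncertain as a separate signal, rose by 0.25. With 1 array left out, H2-K1 missed the test in all 6 cases (limma adjusted p from 0.051 to 0.093), and Nlrc5 passed only without purmorphamine replicate 3 (0.045, and up to 0.12 otherwise). Cd274, Psmb10, Gbp9 and Erap1 passed in all 6.

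**Figure D5:**
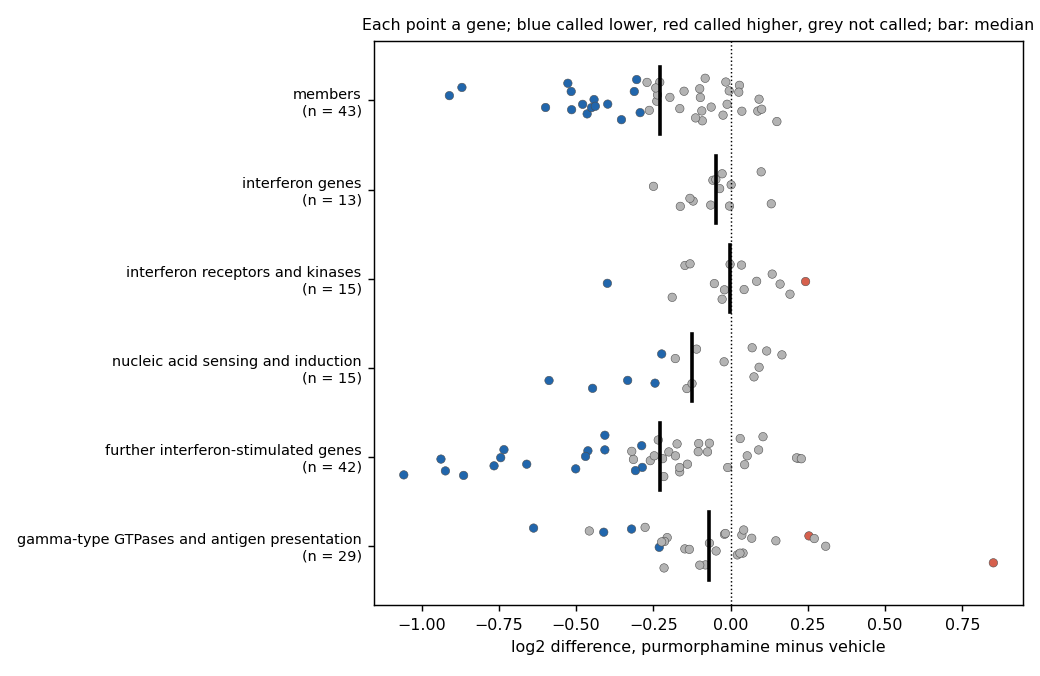
Log2 difference, purmorphamine minus vehicle (x axis), of each gene in the members and in 5 lists of the pathway (rows), with blue for called lower, red for called higher, grey for not called and a bar at the median. Medians are -0.23 for the members and -0.23 for further interferon-stimulated genes, and nearer to 0 for interferon genes (-0.05) and for receptors and kinases (-0.002).

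Markers of some cell types moved in the same arrays, where 7.16% of all genes fell and 7.18% rose. The markers were picked after their values were seen, so their counts are descriptions and no test against these shares. Of 16 leukocyte and macrophage markers 6 fell and 1 rose, and their mean log2 signal was 11.58 on all vehicle arrays and 11.30 to 11.36 on the purmorphamine arrays. None of the 16 was under the arrays' lower quartiles. The 6 that fell are known from macrophages and other leukocytes. Itgam fell by 1.46, more than any member, and the differences were -0.78 in Siglecf, -0.71 in Coro1a, -0.63 in Csf1r, -0.62 in Mrc1 and -0.37 in Adgre1. Itgax rose by 0.31. The other 9 did not pass, with differences of 0.07 for Ptprc and 0.05 for Lyz2. Among these 9, Marco (0.20), Cd14 (0.19) and Cd68 (0.13) were higher without overlap, and Fcer1g (-0.17) and Laptm5 (-0.11) were lower. Over the 16, 7 lay below without overlap and 5 above, where 17.1% of all genes lay below and 17.1% above. Differences of the 16 had both signs, 10 below 0 and 6 above. Of 13 fibroblast markers 9 rose and 2 fell, with means of 9.77 to 9.85 and 10.06 to 10.11. The part of these shifts in the falls of the interferon-stimulated genes was not tested. Of 5 markers of plasmacytoid dendritic cells, which are strong interferon producers, 2 rose and 0 fell. Siglech had means of 6.40 with vehicle and 6.41 with purmorphamine. Ccr9, at 4.64 and 4.58, and Klk1, at 3.78 and 3.47, lay under the lower quartiles and were not called. Tcf4 and Cox6a2, which other cells also express, rose by 0.23 and 0.70. The list's mean was 6.25 to 6.32 with vehicle and 6.39 to 6.40 with purmorphamine. Of 9 markers of T, B and NK cells 0 were called in the limma fit, 1 was lower at an unadjusted p under 0.05, 3 were under the lower quartiles, and means were 5.49 to 5.67 and 5.51 to 5.63. Of 7 epithelial markers 1 rose and 0 fell, with means of 7.39 to 7.48 and 7.39 to 7.45. This is 14.3% called, no more than the 14.3% of all genes. Of 5 endothelial markers 2 rose and 0 fell, with means of 8.12 to 8.15 and 8.31 to 8.35.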

How the data were processed

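The deposited table holds log2 signals of 6 arrays for each probe set. The submitters' processing notes list oligo, RMA and limma without a version. RMA aligns the arrays with each other, so a shift shared by all genes may not show; the medians of the deposited arrays ran from 6.34 to 6.39. Precision is limited by the number of arrays: differences had a median SE of 0.07. Names came from the platform annotation: of 41345 probe sets 23521 had 1 symbol, 1814 several and 16010 none. Purmorphamine was compared with vehicle by lmFit and eBayes of limma 3.58.1 (R 4.3.3), without a block or filter, two-sided, with Benjamini-Hochberg adjustment over 22180 genes. Steps were tested on simulated data. The members and all gene lists were chosen with earlier results of these data known. All called members are named with their values, the 12 of smallest p with every array, and in each other list at most 6 called genes and a few fixed ones (Ifnar1, Ifnar2, Jak1, Tyk2, Ifnb1 and Irf3; a further one is not reported here). Others named, among them Isg15, Ifit1, Ifit3, Isg20, Tap1, Cxcl10 and Rtp4 with every array, and the markers, were picked after their values were seen. Promoter sequences are RefSeq's, matched by symbol for 35 of 44 members. SciPy 1.17.1 gave exact permutation tests and matplotlib 3.10.9 the plots (Python 3.11.15).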

Additional observations from a re-analysis of the deposited data

How the results depend on the processing

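The alternatives were centring on array medians, quantile normalization, a filter on the dimmest genes (0.333 of them), the mean of probe sets, every probe set tested separately, an offset of 50, array weights, eBayes with trend and robust, the replicate block, each array left out, and other thresholds. No member rose under any of them. All 16 falls were kept under each but the replicate block, the omissions and a fold of at least 1.5, and 16 to 20 members fell there. Where 20 fell, more of all genes were called lower as well, beside 7.16% in the main fit. The share was 14.1% without the dimmest genes, 9.76% with the offset, 10.3% with trend and robust and 10.2% at an adjusted p under 0.1. The additions came from Eif2ak2, Parp9, Parp12 and Ifi35. A fold of at least 1.5 left 3 members, 11 pathway genes of 29, and 525 genes. Without 1 of the arrays, which leaves fewer samples, 10 to 13 members fell, 20 to 24 pathway genes were called, and 1967 to 2374 genes of 3181. The called genes were 4342 to 4697 without the dimmest genes, with the offset or with trend and robust, within 1.5 times the main count. Fewer genes were tested without the dimmest, and 29.4% of them were called, against 14.3% in the main fit. The members' median stayed between -0.26 and -0.16. Same-numbered arrays deviated together weakly (correlations of 0.11, 0.02 and 0.10 across genes), each array best with its own number, a hint from the data only. The second principal component, an axis holding 13.2% of the variance between arrays, set replicate 3 apart. On it, replicate 3 lay at -13.6 for vehicle and -9.6 for purmorphamine, and the other arrays at 3.1 to 6.9. With the replicate block 12 members fell and 2432 genes were called. Zbp1 (limma adjusted p = 0.061), Herc6 (0.055), Trim30a (0.051) and Psmb8 (0.065) then missed the test.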

Other observations

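Within the vehicle group, replicate 1 had the highest signal of the 3 arrays in 24 of the 43 members, against 31.8% of all genes, and replicate 3 the lowest in 18, against 29.8%. Among them were Ifit1, Usp18, Bst2 and Rtp4, all highest in vehicle replicate 1. Within the purmorphamine group, replicate 2 was highest in 18 members and lowest in 14. The members share arrays and regulators and are no independent counts.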
